A study of Mus musculus with 8 samples.

Results

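The genes that bring fructose and glucose into the liver cell and carry them down glycolysis were followed in mice with metabolic dysfunction-associated steatohepatitis (MASH). Members were picked by gene symbol: Slc2a5, Slc2a2, Khk, Gckr, Hk2, Pfkl, Pklr and Pkm. All 8 were found among the 52636 genes of the count tables, and all 8 passed the filter that left 15248 genes for testing. Whole-liver RNA was sequenced from 8 male wild-type C57BL/6J mice, 1 library per mouse. Every mouse received an adeno-associated virus of serotype 8 (AAV8) by intraperitoneal injection at 7 weeks of age, and from 8 weeks of age every mouse ate a diet rich in fat, fructose and cholesterol for 24 weeks. In the AAV8-GFP group (mice 303, 311, 314 and 315) the virus carried green fluorescent protein. In the AAV8-AGXT group (mice 308, 309, 316 and 319) it carried human AGXT, which encodes the enzyme that converts glyoxylate to glycine. Both transgenes were driven by the TBG promoter, which is active in hepatocytes. The transgene is human and the tables list mouse genes, so its level was not analysed here. Mice on a standard diet or without virus were not analysed here. The comparison asks how raised hepatic AGXT changes the liver transcriptome under the MASH diet.

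Fructose crosses membranes through GLUT5, the product of Slc2a5, and through GLUT2, the product of Slc2a2, the main sugar transporter of hepatocytes. In the liver, ketohexokinase (Khk) phosphorylates fructose without the feedback that restrains glycolysis, and fructose carbon joins glycolysis below phosphofructokinase. Gckr encodes a regulatory protein of hepatocytes that restrains glucose phosphorylation to a degree that depends on sugar phosphates, and Pklr encodes the liver pyruvate kinase that finishes glycolysis. Hexokinase 2 (Hk2) and the pyruvate kinase gene Pkm are used by many other cell types and are scarce in healthy hepatocytes.

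The libraries held 17095433 to 28780140 read pairs assigned to genes. All 9 hepatocyte markers found were tested, and their summed level was 57240 to 71170 CPM, which are counts scaled to library size, in AAV8-GFP mice and 67360 to 91200 CPM in AAV8-AGXT mice. Mouse 308 stood apart from the rest of its group, with 56.3% of its tallied pairs on genes against at least 62.4% in every other mouse and the lowest composition factor of the trimmed mean of M-values (TMM), 0.831. Results for each member are therefore also given without it. Levels are CPM scaled by TMM factors, and values for single mice are given in the order of the mouse numbers above. Log2 fold changes are AAV8-AGXT minus AAV8-GFP from edgeR's quasi-likelihood test, with p-values adjusted by the Benjamini-Hochberg method over all genes tested, and genes with an adjusted p under 0.05 are named as called. The exact permutation test on single genes was two-sided and ran over the 70 arrangements of the mice, so 0.0286 is the smallest p it can give.

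Of the 8 members, 1 was called higher (Slc2a5) and 0 were called lower at this threshold. Over all genes tested, 2.45% were called higher and 1.90% lower. DESeq2 called Slc2a5 higher and Pkm and Hk2 lower, and it called 6.58% of all genes with an adjusted p higher and 6.37% lower. With no filter on low counts edgeR also called Slc2a5 higher and Pkm and Hk2 lower, beside 1.46% of all genes higher and 1.52% lower. The groups did not overlap for 3 members, Slc2a5 (higher) and Pkm and Hk2 (lower), while 8.93% of all genes tested were higher and 7.63% lower without overlap. An unadjusted p under 0.05 was found for the same 3 members and for 26.2% of all genes tested. The calls across the genome, 374 higher and 290 lower, varied with the mouse left out: without AAV8-GFP mouse 311 they were 2 and 0, without AAV8-GFP mouse 314 they were 11 and 4, and without AAV8-AGXT mouse 319 they were 12 and 2. Without AAV8-AGXT mouse 309 they were 379 and 264, and without AAV8-GFP mouse 315 they were 304 and 325. The remaining fits gave 86 to 226 higher and 79 to 185 lower. Each of these fits also has fewer samples.

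**Figure D1:**
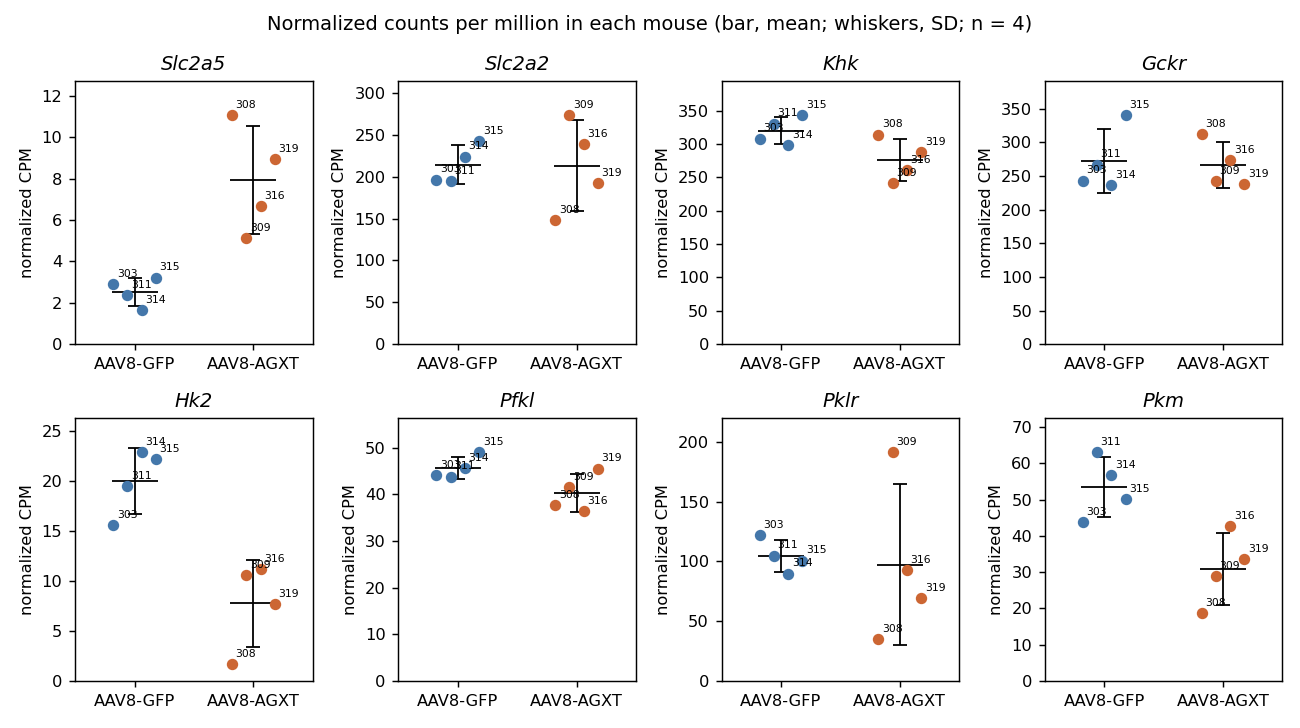
Normalized CPM (y axis, starting at 0) of each member in the 4 AAV8-GFP mice (blue) and the 4 AAV8-AGXT mice (orange), with the mouse number beside each point, the mean as a bar and the SD as whiskers. Slc2a5 lay higher in all AAV8-AGXT mice, Hk2 and Pkm lay lower in all of them, and Pklr spread from 35.1 to 191.5 CPM within the AAV8-AGXT group.

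Per kilobase of exon, which allows levels of different genes to be compared, the members covered a wide range in AAV8-GFP livers. The mean was 178 ± 11.5 CPM per kb for Khk, 62.7 ± 10.9 for Gckr, 37.3 ± 3.997 for Slc2a2, 32.2 ± 4.11 for Pklr, 10.7 ± 1.66 for Pkm, 6.84 ± 0.358 for Pfkl, 3.35 ± 0.553 for Hk2 and 0.744 ± 0.2001 for Slc2a5 (SD, n = 4 each). Among neighbours in this order, only Slc2a2 (33.8 to 42.1 CPM per kb) and Pklr (27.7 to 37.6) overlapped. In AAV8-AGXT livers the order of the means was the same down to Pfkl, at 153 ± 17.6 CPM per kb for Khk, 61.5 ± 7.87 for Gckr, 37.1 ± 9.44 for Slc2a2, 30.0 ± 20.8 for Pklr, 6.19 ± 1.98 for Pkm and 6.03 ± 0.610 for Pfkl (SD, n = 4 each). Below these stood Slc2a5 at 2.33 ± 0.763 and Hk2 at 1.30 ± 0.728 CPM per kb (SD, n = 4 each), in the opposite order to that in AAV8-GFP livers. The ranges of Slc2a5 (1.501 to 3.25 CPM per kb) and Hk2 (0.278 to 1.87) overlapped there, as did those of Pkm and Pfkl, and that of Pklr overlapped both Slc2a2 and Gckr.

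**Figure D2:**
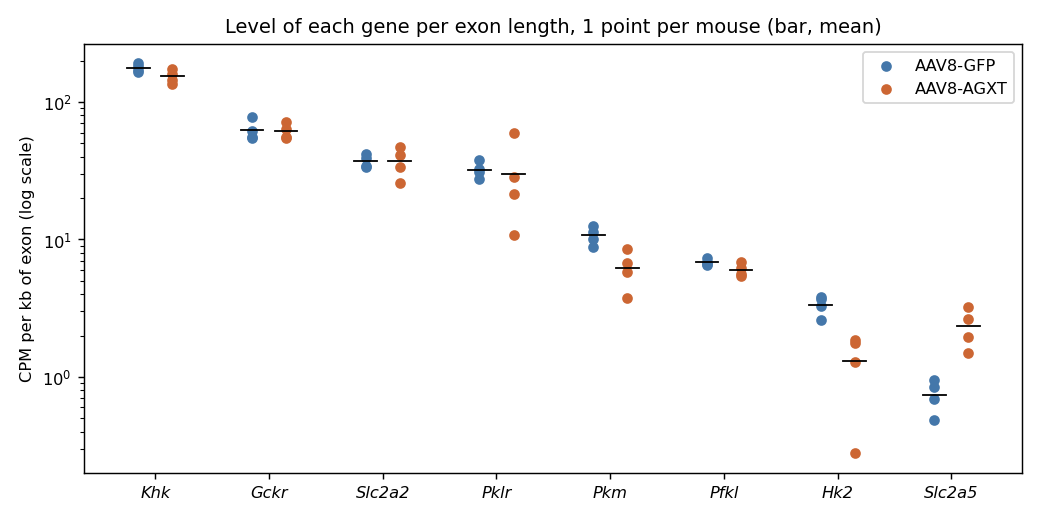
CPM per kb of exon (y axis, log scale) of the 8 members, ordered by their mean in AAV8-GFP mice, with 1 point per mouse (AAV8-GFP blue, AAV8-AGXT orange) and the group mean as a bar. Khk, at 134 CPM per kb or more in every mouse, stood above all others, and Slc2a5 and Hk2 were lowest.

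Slc2a5, on chromosome 4 (GRCm38, chr4:150119283-150144169, plus strand), was the scarcest member in AAV8-GFP livers. Its levels there were 2.89, 2.36, 1.66 and 3.22 CPM, from 36 to 77 read pairs per library. In AAV8-AGXT livers they were 11.05, 5.11, 6.68 and 8.92 CPM, from 85 to 189 read pairs. The lowest AAV8-AGXT mouse (309) stood above the highest AAV8-GFP mouse (315). The means were 2.53 ± 0.681 and 7.94 ± 2.60 CPM (SD, n = 4 each), and the fitted change was 3.13-fold, with a 95% interval of 2.02 to 4.85 (log2 fold change 1.64, SE 0.284, edgeR adjusted p = 0.0287). The exact permutation p was 0.0286. The call was lost without AAV8-GFP mouse 311 (edgeR adjusted p = 0.124), without AAV8-GFP mouse 314 (0.0798) or without AAV8-AGXT mouse 319 (0.0814), although the log2 fold change stayed between 1.43 and 1.78 in the 8 fits that each left out 1 mouse. Without mouse 308 it was 1.43 (edgeR adjusted p = 0.0471). No gene overlaps Slc2a5 in the annotation, and none of its 50-base stretches occurs in another annotated gene.

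The RNA was from whole liver, where fewer cells of a type and less RNA per cell cannot be told apart. Markers of pericentral hepatocytes were higher in the AAV8-AGXT group, as Slc2a5 was. Of the 8, 3 were called higher and all 8 had a higher mean. Their summed level was 7448 to 9386 CPM in AAV8-GFP mice and 15370 to 20290 CPM in AAV8-AGXT mice. Among all genes tested, 2.45% were called higher and 52.3% had a higher mean. Of the 4 enterocyte genes, markers of the tissue best known for GLUT5, Cdx2 was at 0 in every library and 0 of the 3 tested were called. Their summed level, 277 to 349 CPM in AAV8-GFP and 300.5 to 567 CPM in AAV8-AGXT mice, overlapped between groups. Markers of the opposite, periportal zone were also higher, with 7 of 8 higher in the mean, 1 called higher and sums of 2179 to 3440 CPM in AAV8-GFP and 3588 to 4232 CPM in AAV8-AGXT mice, and all 9 hepatocyte markers had a higher mean with 0 called. The part of hepatocyte content and zonation in the Slc2a5 result was not tested.

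The sequence upstream of the Slc2a5 start is shown because Slc2a5 was the only member called, with capitals marking each GC box (GGGCGG on either strand; here it reads in the reverse orientation). The stretch is chr4:150119094-150119235 on the plus strand of GRCm38.p6, from RefSeq, and ends 109 bases before the RefSeq start.
Slc2a5 upstream: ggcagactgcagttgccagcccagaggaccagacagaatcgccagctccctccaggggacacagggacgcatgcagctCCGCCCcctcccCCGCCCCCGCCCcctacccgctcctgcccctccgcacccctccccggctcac
All 3 boxes found in the 250 bases before the start are in this stretch. A GC box occurred in 32.7% of the 32851 RefSeq windows of this length, and the GC content of the Slc2a5 window was 66.4% against a median of 52.4%. The E-box CACGTG, found in 6.02% of windows, and the TATA box TATAAA, found in 12.4%, did not occur in the Slc2a5 window.

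Slc2a2 (chr3:28697903-28731359, plus strand) was at 196, 195, 224 and 242 CPM in AAV8-GFP mice. It was at 149, 273, 239 and 192 CPM in AAV8-AGXT mice, which span a wider range on both sides of the controls. The fitted log2 fold change was -0.01, with a 95% interval of -0.42 to 0.40 (SE 0.183, edgeR adjusted p = 0.986), so a change of more than about 1.33-fold lower or 1.32-fold higher lies outside the interval. Its sign turned when mouse 308, 315 or 319 was left out, to 0.12, 0.06 and 0.04. Among the 10 sugar transporter genes of the Slc2a family in the lists used here, Slc2a2 made up 65.8% to 73.2% of the summed CPM per kb in AAV8-GFP mice and 56.5% to 72.4% in AAV8-AGXT mice. The Slc2a5 share was 0.919% to 1.64% in AAV8-GFP mice and 2.29% to 7.10% in AAV8-AGXT mice, without overlap.

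Khk (chr5:30921431-30931248, plus strand), the most abundant member per length, was at 308, 330.5, 298 and 343 CPM in AAV8-GFP mice. In AAV8-AGXT mice it was at 314, 242, 260.5 and 287.5 CPM, so that 3 of the 4 lay below every control and mouse 308 lay among them. The log2 fold change was -0.21 (95% interval -0.48 to 0.06, SE 0.121), and it did not pass the test (edgeR adjusted p = 0.293; exact permutation p = 0.0857). Without mouse 308 it was -0.29 (edgeR adjusted p = 0.198). Tkfc, the triokinase that phosphorylates glyceraldehyde downstream of Khk, was not called either, with a log2 fold change of -0.25 (95% interval -0.57 to 0.07, edgeR adjusted p = 0.299).

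Gckr (chr5:31297443-31327314, plus strand) was at 243, 267, 237 and 340 CPM in AAV8-GFP mice and at 312, 243, 274 and 238 CPM in AAV8-AGXT mice. The groups overlapped over nearly their whole range. The log2 fold change was -0.03 (95% interval -0.36 to 0.31, SE 0.151, edgeR adjusted p = 0.930), and without mouse 308 it was -0.12 (edgeR adjusted p = 0.667).

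Hk2 (chr6:82725025-82774454, minus strand) was at 15.6, 19.5, 22.9 and 22.1 CPM in AAV8-GFP mice. In AAV8-AGXT mice it was at 1.66, 10.6, 11.1 and 7.69 CPM, and mouse 308 was the lowest with 24 read pairs. All AAV8-AGXT values lay below all AAV8-GFP values (exact permutation p = 0.0286). The means were 20.02 ± 3.30 and 7.77 ± 4.35 CPM (SD, n = 4 each), and the log2 fold change was -1.35 (95% interval -2.29 to -0.42, SE 0.419), that is 2.56-fold lower, with an edgeR adjusted p of 0.0835. DESeq2 called it (adjusted p = 0.0165). It also passed the edgeR test without mouse 308, with a smaller log2 fold change of -1.04 (adjusted p = 0.0425). With no filter on low counts it passed too (edgeR adjusted p = 0.0485). The other 13 of the 16 alternatives did not call Hk2. Among them were limma-voom (adjusted p = 0.0624) and edgeR without AAV8-GFP mouse 311 (adjusted p = 0.208).

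The proximal Hk2 promoter is shown because Hk2 had the largest negative log2 fold change among the members. It covers the 160 bases before the RefSeq start, chr6:82774455-82774614 on the minus strand of GRCm38.p6, with GC boxes in capitals.
Hk2 upstream: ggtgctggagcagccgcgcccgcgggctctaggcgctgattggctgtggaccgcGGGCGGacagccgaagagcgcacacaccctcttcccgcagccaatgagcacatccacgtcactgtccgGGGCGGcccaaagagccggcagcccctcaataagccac
The 250-base Hk2 window held 3 GC boxes, no E-box and no TATA box, and its GC content was 69.6%. Of the 2 Pkm windows, 1 held a GC box. The window of Khk, which did not pass the test, held 1 E-box and 1 GC box at a GC content of 67.2%.

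Pfkl (chr10:77986947-78010083, minus strand) encodes the liver subunit of phosphofructokinase, the step that fructose carbon bypasses. It varied least among the members, at 44.2, 43.8, 45.7 and 49.0 CPM in AAV8-GFP mice and 37.7, 41.5, 36.5 and 45.5 CPM in AAV8-AGXT mice. Mouse 319 overlapped the controls and the other AAV8-AGXT mice lay below them. The log2 fold change was -0.18 (95% interval -0.40 to 0.04, SE 0.0977), with an edgeR adjusted p of 0.272 and an exact permutation p of 0.0857, and without mouse 308 it was -0.16 (edgeR adjusted p = 0.402). Pfkl took 54.6% to 60.2% of the CPM per kb of the 3 phosphofructokinase genes (Pfkl, Pfkm and Pfkp) in AAV8-GFP mice and 46.9% to 57.2% in AAV8-AGXT mice.

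Pklr (chr3:89136142-89146784, plus strand) had the highest coefficient of variation of any member in the AAV8-AGXT group, whereas Hk2 had the widest ratio of highest to lowest mouse (6.73-fold). It was at 122, 105, 89.8 and 101 CPM in AAV8-GFP mice, a coefficient of variation of 12.8%. In AAV8-AGXT mice it was at 35.1, 191.5, 92.9 and 69.1 CPM, a coefficient of variation of 69.2%. The highest and the lowest mouse of the experiment were thus both AAV8-AGXT mice, 309 and 308, which differed 5.45-fold. The log2 fold change was -0.10 with a 95% interval from -0.9985 to 0.79 (SE 0.402, edgeR adjusted p = 0.898), without mouse 308 it turned to 0.16 (edgeR adjusted p = 0.790), and without mouse 309 it was -0.68 (edgeR adjusted p = 0.172). The interval over all mice runs from 1.998-fold lower to 1.73-fold higher. The 711 exon bases of Pklr that Hcn3 shares on the opposite strand make its counts uncertain, since the strand setting of the counting is not stated.

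The region before the downstream of its 2 RefSeq starts is shown because liver Pklr is the classical target of the carbohydrate-response element (ChoRE), through which ChREBP, the product of Mlxipl, acts. It is chr3:89136393-89136552 on the plus strand of GRCm38.p6, and capitals mark the match to CACGNGNNNNNCNCGTG, which was searched on both strands and pairs 2 boxes that may each differ from the E-box CACGTG at 1 base.
Pklr upstream: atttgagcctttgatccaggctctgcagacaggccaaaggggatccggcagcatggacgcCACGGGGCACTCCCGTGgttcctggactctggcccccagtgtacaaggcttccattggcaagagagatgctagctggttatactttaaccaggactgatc
The match begins at position -170 from the start, and 13 of the 32851 windows, 0.0396%, held one. None of the other member windows did. Mlxipl itself was at 427, 628, 511 and 923 CPM in AAV8-GFP mice and 784, 556, 533 and 667.5 CPM in AAV8-AGXT mice, with a log2 fold change of 0.03 (95% interval -0.50 to 0.56, edgeR adjusted p = 0.954).

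Pkm (chr9:59656368-59679375, plus strand), the pyruvate kinase gene of most other cell types, was at 43.9, 63.2, 56.8 and 50.2 CPM in AAV8-GFP mice. In AAV8-AGXT mice it was at 18.8, 28.9, 42.6 and 33.5 CPM, every value below every control (exact permutation p = 0.0286). The means were 53.5 ± 8.31 and 30.95 ± 9.92 CPM (SD, n = 4 each), and the log2 fold change was -0.79 (95% interval -1.28 to -0.30, SE 0.220), that is 1.73-fold lower, with an edgeR adjusted p of 0.0699. It passed the DESeq2 test (adjusted p = 0.0145) and the edgeR test with no filter on low counts (adjusted p = 0.0418). It also passed the edgeR test without AAV8-AGXT mouse 316 (adjusted p = 0.0476) and with total counts in place of TMM factors (0.0499). The other 12 of the 16 alternatives did not call Pkm, among them limma-voom (adjusted p = 0.0621). Without mouse 308 the log2 fold change was -0.63 (edgeR adjusted p = 0.0891). A gene model on the same strand, Gm49759, shares 767 exon bases with Pkm, and 25.8% of the 50-base stretches of Pkm occur in other annotated genes, so part of its reads may have gone uncounted. Counts per gene do not separate the 2 splice forms of Pkm. Of the 4 Pkm splicing factors tested 0 were called, where 2.45% of all genes tested were called higher and 1.90% lower. All 4 had a higher mean (52.3% of all genes tested), and 2 were higher without overlap (8.93%).

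The ratio of Pklr to Pkm per exon length was 4.29, 2.57, 2.44 and 3.10 in AAV8-GFP mice and 2.89, 10.2, 3.37 and 3.19 in AAV8-AGXT mice. Mouse 309 alone lay above the controls, and in mouse 308 both genes were low together. With the longest transcript of each gene as the length, the ratio ranged from 1.32 to 2.33 and from 1.57 to 5.55, which again overlapped. Ratios were described without a test. The ratio of Slc2a2 to Slc2a5 did not overlap, at 40.2, 48.8, 79.7 and 44.5 in AAV8-GFP mice and 7.96, 31.6, 21.1 and 12.8 in AAV8-AGXT mice.

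**Figure D3:**
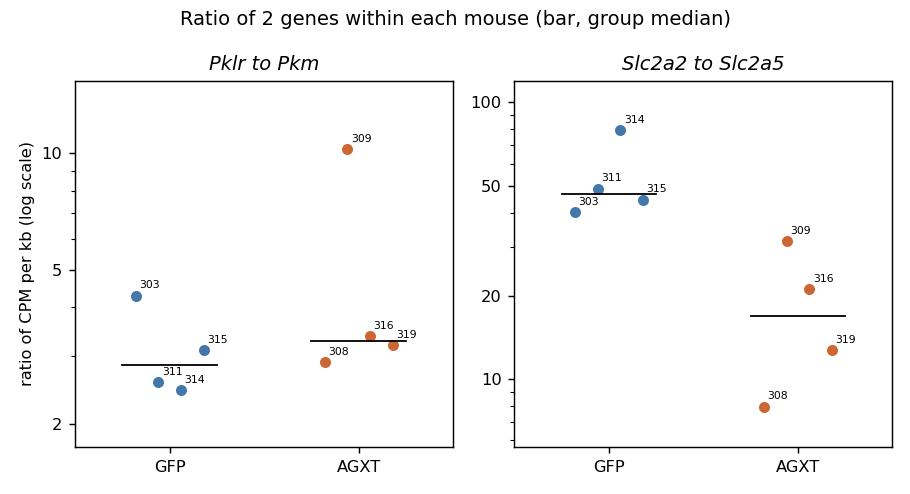
Ratio of 2 genes per kb of exon within each mouse (y axes, log scale), with the mouse number beside each point and the group median as a bar. Slc2a2 to Slc2a5 lay below all controls in each AAV8-AGXT mouse, whereas mouse 309, at 10.2, alone set the highest value of Pklr to Pkm.

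Hk2 and Pkm, described above as scarce in healthy hepatocytes, were set beside marker lists of other liver cells. In group means, most of these lists were lower in AAV8-AGXT mice, as Hk2 and Pkm were, and others were higher. Of the 12 macrophage and monocyte markers, 11 had a lower mean in AAV8-AGXT mice and 1 was called lower, and their summed level was 663 to 1101 CPM in AAV8-GFP and 172 to 705 CPM in AAV8-AGXT mice. Of the 10 stellate cell and fibroblast markers, 8 had a lower mean and 2 a higher one, and 2 were called lower, with sums of 568.5 to 999 and 258 to 646 CPM. Of the 6 genes of cycling cells, 4 were called lower and all 6 were lower without overlap (1.90% and 7.63% of all genes tested), with sums of 22.96 to 39.3 and 4.83 to 13.3 CPM. The 6 cholangiocyte markers, of which 0 were called, summed to 225 to 676 and 74.3 to 274 CPM. Lymphocyte markers (5 of 6 tested lower in the mean) and neutrophil markers (4 of 4) had 0 calls. Resident Kupffer cell markers went the other way, with 5 of 6 higher in the mean, 1 called higher and overlapping sums of 232 to 363 and 191 to 774 CPM, the highest in mouse 319. All 6 endothelial markers had a higher mean, with 0 called and sums of 125 to 188.5 and 134.5 to 240.2 CPM, the highest in mouse 308. Of the sums given in this paragraph, only that of the cycling genes did not overlap between groups. In mouse 308, where Hk2 and Pkm were lowest, the macrophage, stellate, cholangiocyte and cycling sums were also the lowest of the experiment. No marker of these cell type lists was at 0 in every library. Across the 8 mice, which fall into 2 groups, Pearson's r of log2 CPM with the summed macrophage markers was 0.95 for Hk2, 0.96 for Pkm, 0.63 for Pklr, 0.56 for Slc2a2, 0.53 for Pfkl, 0.10 for Khk, -0.34 for Gckr and -0.78 for Slc2a5. With the cycling sum, r was 0.94 for Hk2, 0.96 for Pkm and -0.95 for Slc2a5. In the same order it was 0.85, 0.81 and -0.91 with the stellate sum and 0.84, 0.84 and -0.925 with the cholangiocyte sum. It was -0.84, -0.87 and 0.94 with the pericentral sum. The part of any of these cell types in the Hk2 and Pkm values was not tested.

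**Figure D4:**
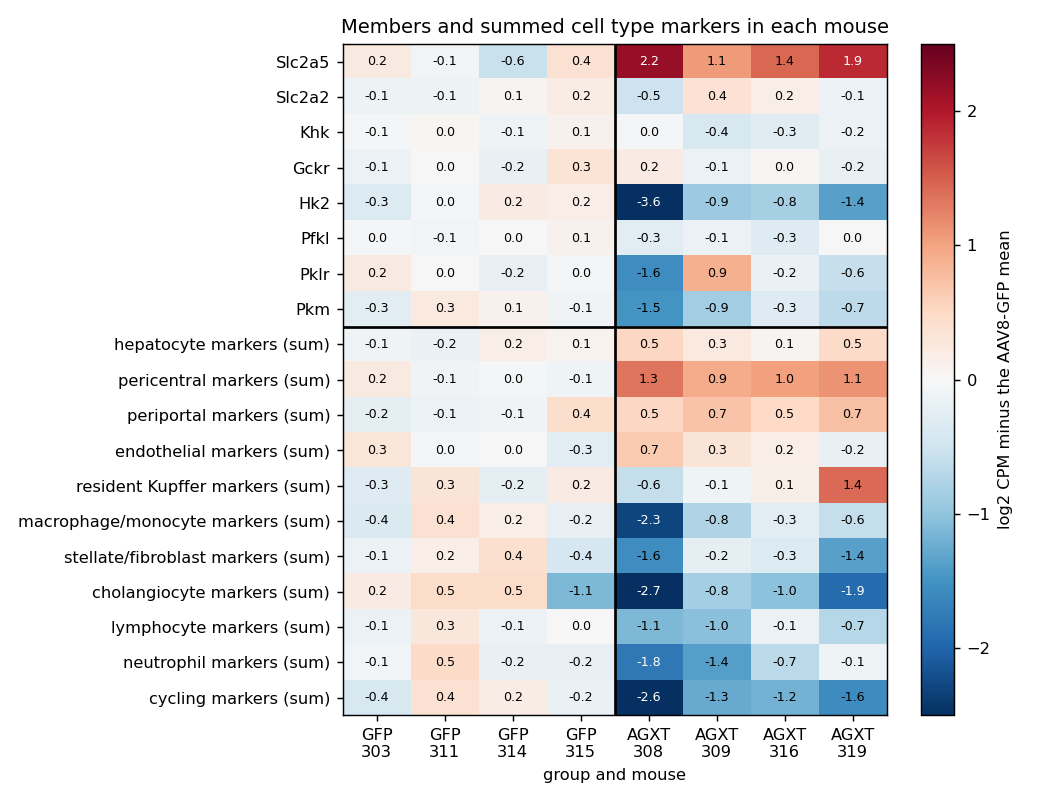
Log2 CPM minus the mean of the AAV8-GFP mice, by colour and number, for each member (above the line) and for the summed markers of each cell type (below it), with 1 column per mouse. The colour scale ends at 2.5 in either direction and the Hk2 value of mouse 308, -3.58, lies beyond it, while the macrophage/monocyte sum of that mouse was -2.30.

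In each mouse the members did not move as 1 block. Mouse 308 had the highest Slc2a5 and the lowest Slc2a2, Pklr, Pkm and Hk2 of all 8 mice, while its Khk and Gckr ranked 3 and 2 from the top. Mouse 309 had the highest Slc2a2 and Pklr and the lowest Khk. Over the 8 mice Pearson's r of log2 CPM was 0.93 between Hk2 and Pkm and 0.84 between Slc2a2 and Pklr, and Slc2a5 ran opposite to Hk2 and to Pkm, at -0.85 with each.

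By the same measure over the 8 mice, the tested genes most like each member were Elac1 (r = 0.99) and Aldh8a1 (0.99) for Slc2a5, Kdm1b (0.97) and Tmf1 (0.97) for Slc2a2, and the pseudogene Rps15a-ps6 (0.97) and Fkbp2 (0.97) for Khk. They were the noncoding 9030616G12Rik (0.97) and Phkg2 (0.96) for Gckr, Rnf41 (0.99) and Tnip1 (0.99) for Hk2, Zfand3 (0.96) and Ybey (0.94) for Pfkl, the noncoding Gm26669 (0.99) and Setd7 (0.96) for Pklr, and Cd83 (0.99) and Cotl1 (0.99) for Pkm. An r above 0.9 was reached by 491 genes for Slc2a5, 566 for Pkm and 590 for Hk2, the members whose groups did not overlap, and by 10 to 61 genes for the others.

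Around the members, 68 further genes of fructose use, glucose entry, glycolysis, pyruvate handling and their regulators were listed, and 66 of them were tested. Of these, 2 were called higher and 0 lower, where 2.45% and 1.90% of all genes tested were called, and their median log2 fold change was 0.04 against 0.02 over all genes tested. Without overlap between groups, 10 of the 66 were higher and 5 lower, beside 8.93% and 7.63% of all genes tested. Fructose transporter gene Slc2a7 was at 0 in every library.

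Both called genes encode enzymes that regulate the pathway. Pfkfb1, the liver enzyme that makes and removes fructose 2,6-bisphosphate, the activator of phosphofructokinase, was at 21.2, 28.4, 36.7 and 31.7 CPM in AAV8-GFP mice and 62.9, 69.3, 43.0 and 56.4 CPM in AAV8-AGXT mice. It was 1.96-fold higher (log2 fold change 0.97, SE 0.187, edgeR adjusted p = 0.0344). Pdp2, a phosphatase that activates pyruvate dehydrogenase, was at 19.9, 23.8, 23.5 and 36.1 CPM in AAV8-GFP mice and 53.6, 54.4, 43.0 and 54.3 CPM in AAV8-AGXT mice. It was 1.99-fold higher (log2 fold change 0.99, SE 0.177, edgeR adjusted p = 0.0303). For both genes the groups did not overlap, and each was called in 3 of the 8 fits that left out 1 mouse.

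By list, 0 of the 7 tested genes of fructose use were called, with a median log2 fold change of 0.31. Of the 9 tested genes of glucose entry and hexokinases, 0 were called and 8 had a lower mean, with a median of -0.78. The trunk of glycolysis had 19 tested genes, of which 1 (Pfkfb1) was called and 10 had a higher mean, with a median of 0.03. The list of pyruvate fate had 16, of which 1 (Pdp2) was called, with a median of 0.10. The 11 regulators of the carbohydrate response had 0 calls and a median of 0.03, and the 4 splicing factors a median of 0.12.

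**Figure D5:**
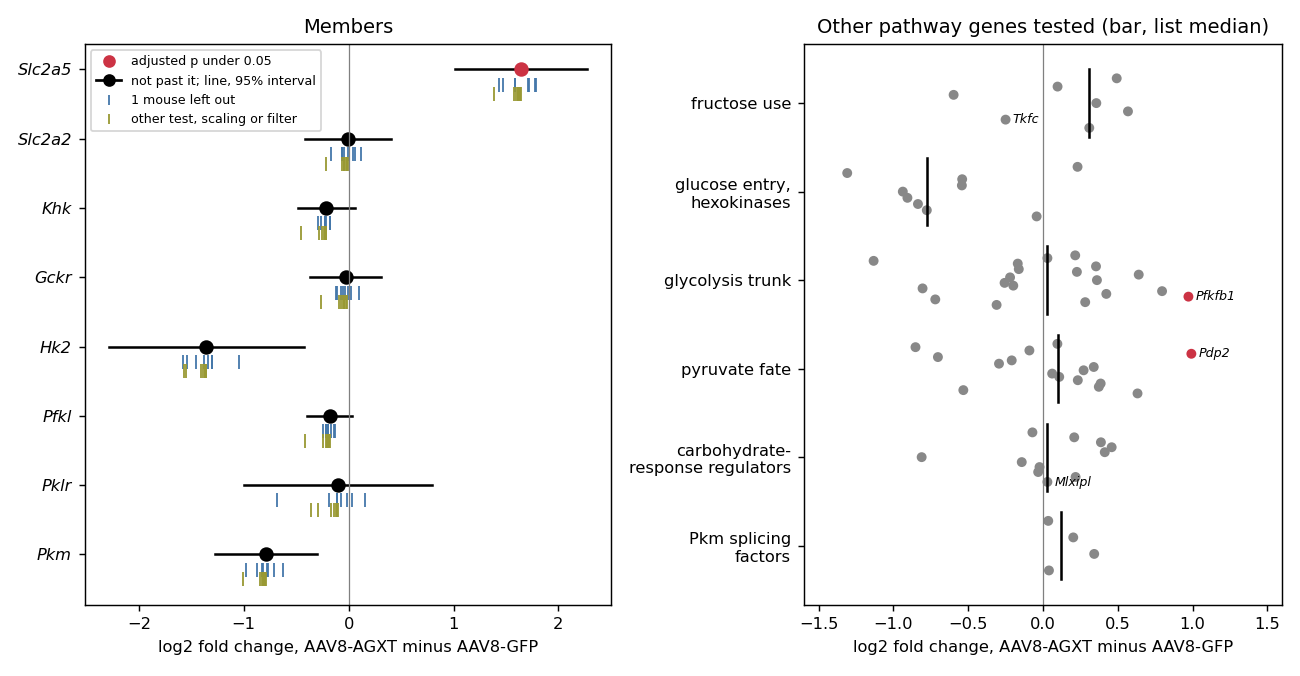
Log2 fold change, AAV8-AGXT minus AAV8-GFP (x axes), of the 8 members with 95% intervals (left) and of the other 66 pathway genes tested, by list, with the list median as a bar (right). Red points have an edgeR adjusted p under 0.05 (Slc2a5, Pfkfb1 and Pdp2), and the short marks under each member give its value with 1 mouse left out (blue) or under another test, scaling or filter (olive).

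Scaling bore on the members with small changes. With total counts in place of TMM factors the median log2 fold change over all genes moved from 0.02 to -0.22, and Khk, Pfkl and Pkm were called lower (edgeR adjusted p = 0.0344, 0.0442 and 0.0499), as 5.62% of all genes were, while Slc2a5 was called higher, as 0.944% were. Relative to that median, the log2 fold changes under total counts were -0.24 for Khk, -0.20 for Pfkl, -0.79 for Pkm, -1.33 for Hk2 and 1.61 for Slc2a5. The same change of scaling moved the higher calls from 56.3% to 14.4% of all calls.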

How the data were processed

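Members and gene lists were chosen with earlier results of these data known. For these stranded mRNA libraries the authors used Trimmomatic 0.35 for trimming, HISAT2 2.1.0.13 with GRCm38 for mapping and HTSeq for counting on Ensembl genes, and the deposited values are raw counts, 1 table per mouse. Depth was 17095433 to 28780140 counted pairs, and the spread between mice (common biological coefficient of variation 23.3%) limits the precision. The strand option of the counting is not given in the sources used here. Mice were grouped by the labelled virus, and none was left out.

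Gene models came from GENCODE M21 (GRCm38), which matched 52489 of 52636 genes, and promoters from RefSeq (GRCm38.p6). The main test, in R 4.3.3, was edgeR 4.0.16 (filterByExpr, TMM, quasi-likelihood, not robust, with virus as sole term, Benjamini-Hochberg over 15248 genes, threshold 0.05). Log2 CPM used a prior count of 2 and fold changes one of 0.125. The fits were tested on a single set of counts simulated with edgeR's own dispersion estimates. There edgeR and limma-voom kept false calls under the threshold of 0.05 and DESeq2 exceeded it. Because that setting follows edgeR's model, it cannot rank the tests on the counts of these mice. Alternatives were DESeq2 1.42.0, limma-voom (limma 3.58.1), robust estimation, DESeq2's size factors, upper-quartile factors, total counts, no filter, at least 10 counts in every library, and each mouse left out in turn. Ratios and correlations were given without a test. Lengths were the union of a gene's exons.

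Genes named were the 8 members; Tkfc and Mlxipl whatever their values; in each pathway list and direction, up to 4 called genes with the smallest p; and for each member the 2 genes with the highest Pearson r. Slc2a7 was named after its values were seen, as were the genes of each family whose shares are given. Other results that the rule and the ratios called for are not reported here.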

Additional observations from a re-analysis of the deposited data

Results flagged for a closer look

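Of the 20 groups of 4 mice checked, for the 8 members and the 2 ratios in each treatment, 1 held a mouse whose gap to its nearest neighbour exceeded Dixon's limit for 4 values, given as a share of the group's range. About 1 group in 20 would do so by chance. In the AAV8-AGXT group, the ratio of Pklr to Pkm per exon length was 10.2 in mouse 309, while the other mice of the group lay between 2.89 and 3.37 (gap over range 0.935). This ratio carries the highest Pklr of the experiment, 191.5 CPM. The value of no single member passed the limit.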

How the results depend on the processing

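Of the 16 alternatives, 13 kept Slc2a5 as the only member called higher, and each alternative gave it a positive log2 fold change, from 1.39 to 1.78. Leaving out 1 mouse gave 0 to 1 members called higher and 0 to 1 called lower, 0 to 3 pathway genes called higher and 0 to 1 lower, and 2 to 379 genes of all tested called higher and 0 to 325 lower. DESeq2 called 2 members, 5 pathway genes and 1033 of all genes lower, and 8 pathway genes and 1068 of all genes higher. Total counts gave 3 members, 5 pathway genes and 857 of all genes lower, and 144 of all genes higher. Without a filter on low counts, 2 members, 1 pathway gene and 431 of all genes were called lower, and 415 of all genes higher. The causes were not tested, though a fit without 1 mouse has fewer samples. In the fits that left out 1 mouse, Slc2a2 ranged from -0.16 to 0.12, with 0.06 (without AAV8-GFP 315), 0.12 (without AAV8-AGXT 308) and 0.04 (without AAV8-AGXT 319), Gckr ranged from -0.12 to 0.10, with 0.10 (without AAV8-GFP 315) and 0.03 (without AAV8-AGXT 319), and Pklr ranged from -0.68 to 0.16, with 0.16 (without AAV8-AGXT 308) and 0.03 (without AAV8-AGXT 319). Khk, Pfkl, Pkm and Hk2 kept a negative sign under all 16 alternatives. The 2 ratios moved by less than the spread between mice when 1 mouse was left out or when the longest transcript was used, but Pklr to Pkm went from 0.48 to 0.06 (log2 difference of the groups) without mouse 309. No paired analysis was possible because the mouse numbers are not shared between groups. Slc2a5, with 36 to 189 read pairs per library, and Hk2 in mouse 308, with 24, are the member values most limited by depth.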
